A study of Homo sapiens with 10 samples.

Results

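The ZNF genes are a large naming family of zinc finger proteins. Here they are the genes whose symbol in the array annotation begins with ZNF and a digit, taken from the rows of the deposited table that list a single symbol. This rule gave 59 genes, of 4713 genes with such rows, and they were measured by 468 rows of 54806. RNA came from SW620, a human colon cancer line, as 4 arrays of the parental cells, 3 arrays of liver metastasis derivatives and 3 arrays of lung metastasis derivatives. The derivatives had formed metastases in balb/c nude mice, which lack most T cells, and were grown in culture again before RNA was taken. All 10 arrays thus hold cultured SW620 cells, and no other genotype or drug is named in the labels. The labels call the arrays of a group biological replicates but leave unsaid whether each came from a metastasis of its own, so p-values measure only how these arrays vary, which may be technical.

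Most ZNF proteins carry arrays of C2H2 fingers, small domains in which cysteine and histidine side chains hold a zinc ion and a helix reads bases in the DNA groove. Many human members also have a KRAB domain, which recruits the scaffold TRIM28 and through it the histone methyltransferase SETDB1, HP1 proteins and the NuRD complex; many KRAB proteins bind and silence transposable elements. KRAB genes arose by tandem duplication and lie in clusters, while ZNF genes without the domain include activators, repressors and proteins that bind RNA or ribosomes. Of the 59 genes, 28 were on a list of KRAB genes and 31 were not; the list was written from general knowledge, and domains were not read from protein sequence. The genes lie on chromosomes 1 (24 genes), 10 (17), 11 (7) and 12 (11), because the table covers almost only these chromosomes; the large ZNF clusters of chromosome 19 were not analysed here. Of the symbols, 54 were current and 5 were updated (ZNF643 to ZFP69B, ZNF642 to ZFP69, ZNF238 to ZBTB18, ZNF37B to ZNF37BP and ZNF259 to ZPR1).

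The promoter sequences of 4 neighbouring KRAB genes of band 1q44 are printed because 3 of these genes fell in lung derivatives and the fourth did not pass the test, and that of ZNF503 because it rose in both kinds of derivative. Each is the 250 bases before a RefSeq start site in build GRCh38.p14, 5′ to 3′ on the minus strand: ZNF695 at chr1:247008058-247008307, ZNF670 at chr1:247078812-247079061, ZNF669 at chr1:247104357-247104606, ZNF124 at chr1:247172021-247172270 and ZNF503, before its upstream start, at chr10:75401917-75402166. Capitals mark matches on either strand to GGGCGG (the GC box bound by SP1-like factors), CCAAT (the box bound by NF-Y), ACTACAA (letters of the site bound by ZNF143) and TATAAA; none of the matches in these 5 sequences overlap.
ZNF695: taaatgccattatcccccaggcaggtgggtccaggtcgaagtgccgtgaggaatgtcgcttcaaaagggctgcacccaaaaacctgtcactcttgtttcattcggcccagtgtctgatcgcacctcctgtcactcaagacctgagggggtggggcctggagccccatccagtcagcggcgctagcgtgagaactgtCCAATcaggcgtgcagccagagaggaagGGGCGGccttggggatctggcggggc
ZNF670: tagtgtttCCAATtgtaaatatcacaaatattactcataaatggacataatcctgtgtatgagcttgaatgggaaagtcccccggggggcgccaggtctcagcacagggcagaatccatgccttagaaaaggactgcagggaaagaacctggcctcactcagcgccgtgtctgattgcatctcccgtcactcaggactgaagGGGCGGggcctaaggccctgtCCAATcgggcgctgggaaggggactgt
ZNF669: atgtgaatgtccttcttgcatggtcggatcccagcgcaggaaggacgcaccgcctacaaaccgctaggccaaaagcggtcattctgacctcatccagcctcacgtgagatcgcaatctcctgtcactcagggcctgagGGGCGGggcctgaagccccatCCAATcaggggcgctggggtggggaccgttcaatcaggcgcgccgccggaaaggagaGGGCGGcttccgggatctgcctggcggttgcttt
ZNF124: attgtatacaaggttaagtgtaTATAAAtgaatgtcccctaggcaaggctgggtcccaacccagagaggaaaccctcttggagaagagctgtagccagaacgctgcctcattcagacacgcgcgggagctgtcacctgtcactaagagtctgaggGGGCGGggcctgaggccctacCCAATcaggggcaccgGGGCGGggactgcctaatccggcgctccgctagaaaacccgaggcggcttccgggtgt
ZNF503: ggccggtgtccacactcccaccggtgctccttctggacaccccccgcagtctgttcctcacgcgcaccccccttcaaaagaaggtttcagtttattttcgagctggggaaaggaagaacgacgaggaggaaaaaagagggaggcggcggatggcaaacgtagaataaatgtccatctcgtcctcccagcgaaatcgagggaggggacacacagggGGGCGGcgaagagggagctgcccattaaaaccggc

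RefSeq windows were found for 55 of the 59 genes, 79 windows in all. GGGCGG stood in 50.6% of them and in 42.6% of all 35116 windows of the same length, and CCAAT in 41.8% and 32%. ACTACAA was found in 7.59% of the ZNF windows against 2.47% of all, and TATAAA in 7.59% against 10.7%. The windows of ZNF670, ZNF669 and ZNF124 each hold GGGCGG followed by CCAAT on the same strand after 15 bases. That spacing was chosen after reading the ZNF124 sequence; it occurs in 73 of all 35116 windows (0.208%), and 39 of the 73 are among the 670 windows of genes named ZNF or ZFP (5.82% of these). ZNF695 has both motifs in the other order. A match is a run of letters and not a shown binding site. Of the 4 ZNF genes here with the block, ZNF670 and ZNF124 fell in lung derivatives, and ZNF669 (0.04) and ZNF195 (-0.12, at 11p15) did not pass the test.

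A gene's value is the mean of its rows on a log2 scale, a change is a difference of group means on that scale, and a gene was called when limma gave a Benjamini-Hochberg adjusted p under 0.05 over all 4713 genes. Because probes differ in brightness, a value is compared between arrays and not between genes. Parental array 4 often lay outside the range of the other parental arrays. Of 59 ZNF genes, its value lay below their range in 24 (40.7%) and above it in 21 (35.6%), near the shares over all genes (39.5% and 32.7%). An array like the other 3 would also often lie outside their range, and parental arrays 1 to 3 were not counted this way. Over the ZNF rows, array 4 correlated with the other parental arrays at r from 0.952 to 0.957. With the lung arrays r was 0.954 to 0.961, and with the liver arrays 0.940 to 0.949. An earlier look at these data put parental array 4 in 1 set with the 3 lung arrays (array set B). The labels do not name this split, and it was defined after the data were seen. When the model includes the set, the 3 lung arrays have parental array 4 as their sole reference, and such a change is called the change against array 4 below. A single array has no spread of its own, so that test assumes that it varies like the arrays of the other groups. KRT8 and KRT18, keratins of simple epithelium, were bright on every array (12.71 to 12.91 and 11.50 to 11.78). They belong to a list of 7 colon epithelial markers, of which ELF3, LGR5 and TSPAN8 fell in both kinds of derivative. In bulk RNA, fewer cells of a type and less RNA per cell cannot be told apart.

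**Figure D1:**
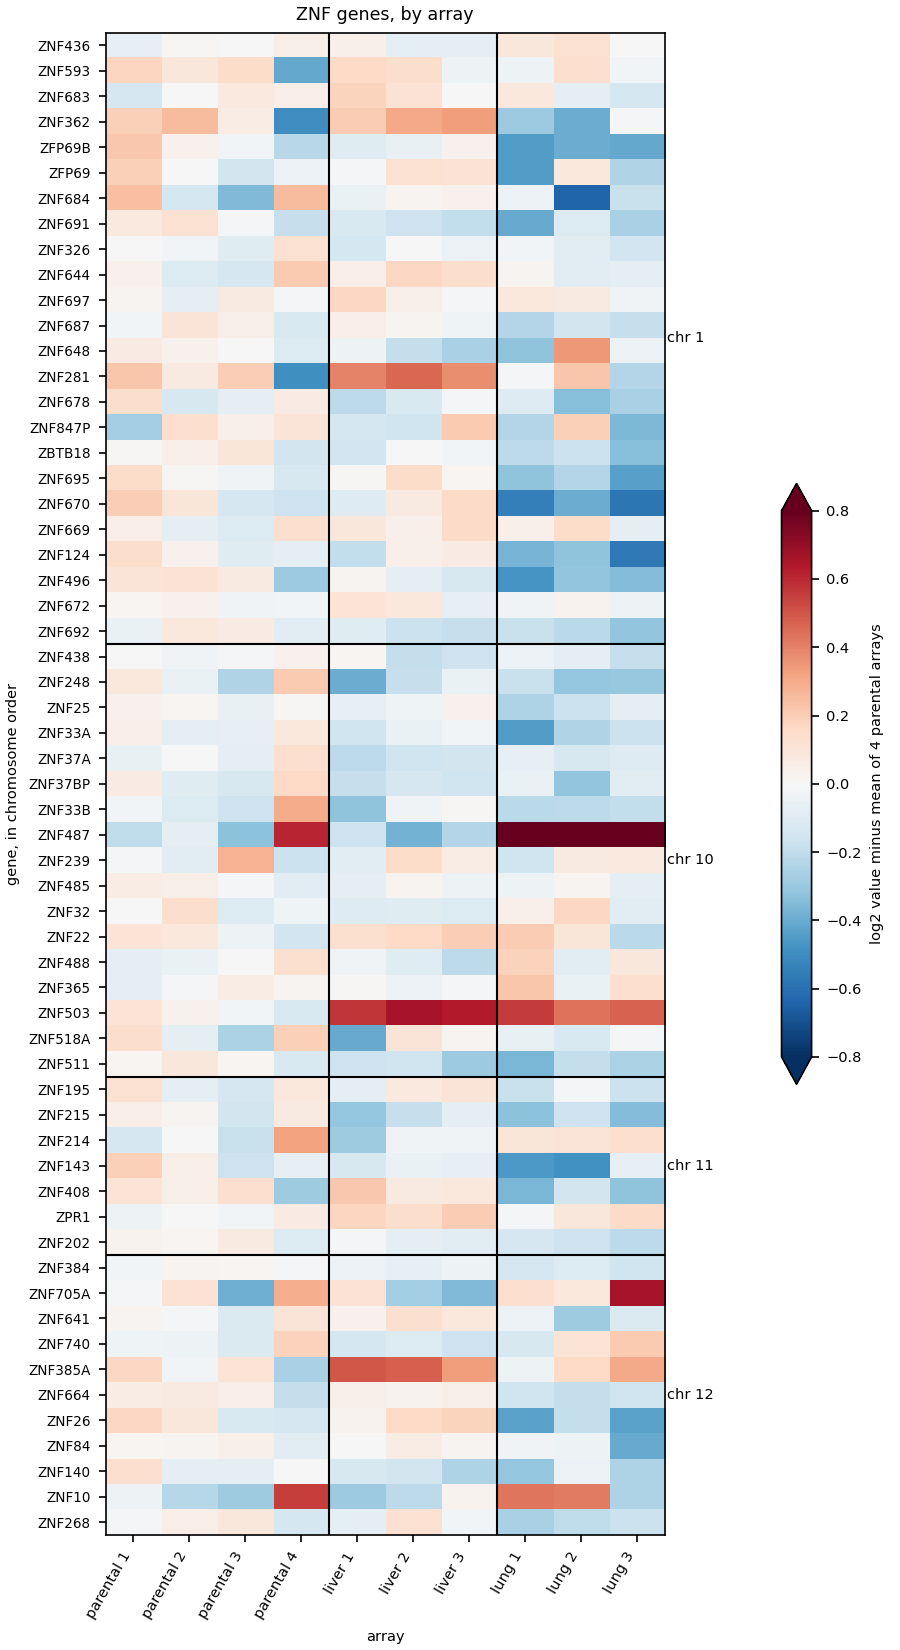
Heat map of 59 ZNF genes (vertical axis, in chromosome order) on 10 arrays (horizontal axis); colour is the log2 value minus the mean of the 4 parental arrays. ZNF503 is red on all liver and lung arrays, ZNF385A on the liver arrays and ZNF487 on the lung arrays and parental array 4, while pale to medium blue is frequent on the lung arrays.

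The first question was how ZNF genes of liver derivatives differed from those of parental cells. ZNF503 and ZNF385A rose in liver derivatives (4.33% of all genes rose) and 0 ZNF genes fell by limma's test (3.5% of all genes fell). These 2 of 59 genes (3.39%) stand against 369 of all 4713 genes called (7.83%). The median ZNF gene changed by -0.03 and the median of all genes by 0.01, and 34 of the 59 lay below 0. In 5 ZNF genes every liver array lay above every parental array (11.1% of all genes did) and in 6 every liver array lay below (9.17%). In the model with the array set both genes were called and ZNF511 was lower as well, by 0.25 on the log2 scale (3 ZNF genes; 8.95% of all genes).

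ZNF503, also called NOLZ1, encodes a NET family corepressor with a single unusual finger that is known from striatal and limb development. Its values were 9.34, 9.26, 9.21 and 9.11 on the parental arrays, 9.80, 9.89 and 9.86 on the liver arrays and 9.79, 9.67 and 9.70 on the lung arrays. All derivative arrays lay above all parental arrays, and parental array 4 was the lowest of the 10. The rise was 0.62 in liver (1.54-fold, SE 0.07, limma adjusted p = 1.62e-04) and 0.49 in lung (1.4-fold, SE 0.07, adjusted p = 7.76e-04), and it was 0.58 and 0.61 in the model that includes the array set. Liver and lung did not differ past the threshold (lung minus liver -0.13, 95% interval -0.29 to 0.03, adjusted p = 0.203). ZNF503 was called in liver in each of 18 alternative settings and in lung in 17 of 18.

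The 9 rows of ZNF503 did not move alike. In liver all 9 lay above the parental mean and 4 were called higher, with row changes from 0.11 to 1.38. In lung 8 of 9 lay above and 3 were called higher. The seventh row was higher in liver by 0.81 and lay at -0.14 in lung. On that row the parental arrays read 8.68, 8.75, 8.58 and 8.25, the liver arrays 9.43, 9.21 and 9.50 and the lung arrays 8.16, 8.55 and 8.55. Lung arrays there lay within or just below the range of the parental arrays. The fourth row rose by 1.38 in liver and by 1.35 in lung.

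**Figure D2:**
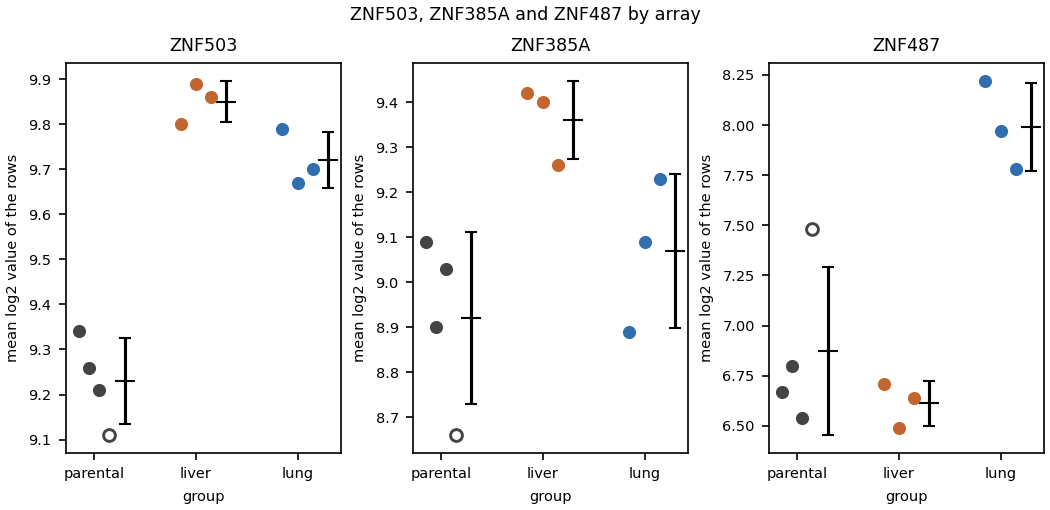
Mean log2 value of the rows (vertical axis) of ZNF503, ZNF385A and ZNF487 in parental, liver and lung arrays; points are arrays, the open circle is parental array 4, and the bar is the mean ± SD of the group. All 6 derivative arrays of ZNF503 lie above 9.34, the highest parental array, and parental array 4 of ZNF487 (7.48) lies between the other parental arrays and the lung arrays.

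ZNF385A (HZF) is a p53 target that binds RNA and p53 itself. Its parental arrays read 9.09, 8.90, 9.03 and 8.66, its liver arrays 9.42, 9.40 and 9.26 and its lung arrays 8.89, 9.09 and 9.23. The liver arrays lay above all parental arrays, and the lung arrays overlapped with the parental arrays and lay just below the liver arrays. ZNF385A rose in liver by 0.44 (1.35-fold, SE 0.11, limma adjusted p = 0.0329), and its lung change was 0.14 (adjusted p = 0.342). All 11 rows lay above 0 in liver and 1 was called. The call was lost in 7 of 18 alternative settings (adjusted p from 0.0194 to 0.487): without parental array 2, or without any 1 of the liver arrays, ZNF503 was the 1 ZNF gene called in liver.

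ZNF281, a factor linked to the epithelial-mesenchymal transition, read 8.87, 8.71, 8.84 and 8.15 on the parental arrays and 9.04, 9.10 and 9.01 on the liver arrays. Every liver array lay above every parental array, and parental array 4 lay far below the other 3. Its liver change of 0.41 did not pass the test (SE 0.16, limma adjusted p = 0.187), nor did its lung change of -0.01.

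The second question was how lung derivatives differed from parental cells. Here 2 ZNF genes rose, ZNF487 and ZNF503, and 15 fell, each by a small amount (1.14 to 1.42-fold). The 17 called genes are 28.8% of the 59, against 1420 of all 4713 genes (30.1%); the 15 that fell are 25.4% against 17.3% and the 2 that rose 3.39% against 12.9%. The median ZNF gene changed by -0.14 and the median of all genes by -0.01, with 43 of 59 below 0 and 51.1% of all genes. Every lung array lay below every parental array in 18 ZNF genes (19.5% of all genes) and above in 2 (12.8%).

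These counts moved with single arrays and with the array set. Against array 4, 3 ZNF genes were called (5.75% of all genes were): ZNF503, ZNF593, a ribosome assembly factor (0.43), and ZNF33B (-0.50). In the last 2, array 4 stood apart from the other parental arrays: it read 9.83 for ZNF593, below 10.33 to 10.41 on those arrays, and 9.60 for ZNF33B, above 9.13 to 9.28. Without array 4 both lung changes were -0.11 and not called. None of the 15 genes that fell was called in that comparison, and their changes ran from -0.07 to -0.37. Leaving out 1 array gave 8 called ZNF genes without parental array 1 (18% of all genes called), 7 without parental array 2 (17.7%), 8 without lung array 1 (17.8%) and 11 without lung array 3 (23.7%), so the calls over all genes dropped as well. Without parental array 4, 22 were called (41.4% of all genes), 20 of them lower (23.2% of all genes), including all 15; the 5 added genes were ZNF202, ZNF362, ZNF384, ZNF408 and ZNF664. With each array centred on its median, 9 ZNF genes fell and 2 rose (29.3% of all genes called, in either direction). After quantile normalization 8 fell and 2 rose (25.9% of all genes called, in either direction). Under both scalings, the share of ZNF genes that fell was nearer to that of all genes than in the main fit. Those scalings also turned the balance of all called genes, from 606 higher of 1420 to 750 of 1383 (54.2%) and 641 of 1223 (52.4%), and moved the median of all genes to 0.04 and 0.03.

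The share that fell followed the brightness of a gene. Genes were split into 4 bins of equal size by their mean over all arrays: 3.05% of all genes fell in the lowest bin, 10.5% in the second and 27.8% in each of the upper bins. Of the 59 ZNF genes, 32 lay in the third bin, where 12 fell (37.5%) and the median ZNF change was -0.16, beside -0.10 for all genes of that bin. In the second bin 2 of 14 fell, in the highest 1 of 6 and in the lowest 0 of 7. The part of brightness in the ZNF falls was not tested.

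ZNF487, a gene of the chromosome 10 cluster on the KRAB list, showed the largest change. It read 6.67, 6.80, 6.54 and 7.48 on the parental arrays, 6.71, 6.49 and 6.64 on the liver arrays and 8.22, 7.97 and 7.78 on the lung arrays. The lung arrays lay above all others, and parental array 4 lay between them and the rest. The rise was 1.11 (2.16-fold, SE 0.19, limma adjusted p = 0.00265), and against array 4 it was 0.51 and not called (adjusted p = 0.0979; 4.31e-05 to 0.0979 over 18 alternatives). Of its 3 rows, 1 was called, with a change of 2.30. On that row parental arrays 1 to 3 read 5.88, 6.89 and 6.09, parental array 4 read 8.62 and the lung arrays 9.38, 9.44 and 8.68. The other rows lay 0.45 and 0.60 above the parental mean and did not pass the test.

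**Figure D3:**
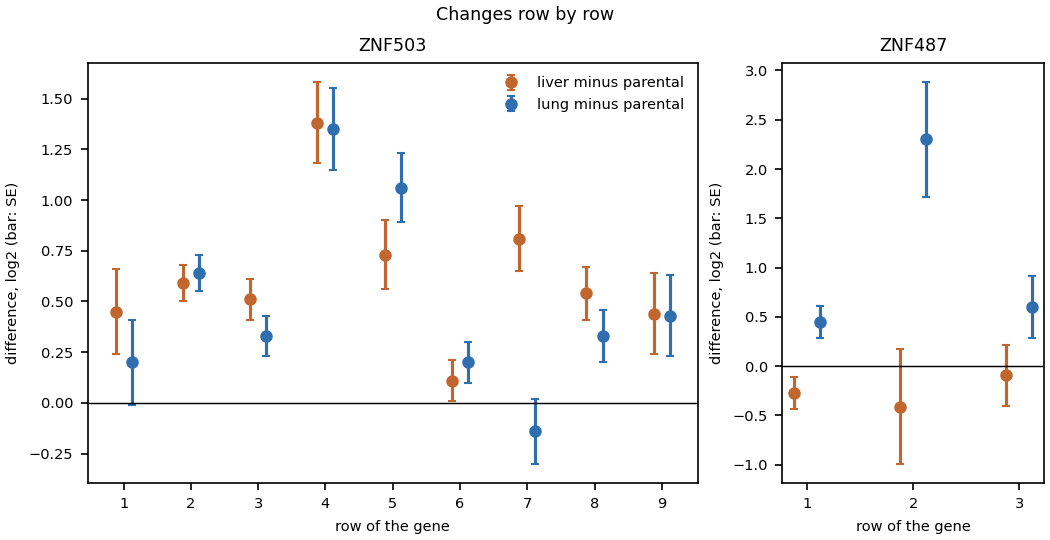
Change from parental cells (vertical axis, log2; bars are SE) of each row (horizontal axis) of ZNF503, 9 rows, and ZNF487, 3 rows, in liver and lung derivatives. Rows of ZNF503 lie mostly above 0 in both, with the seventh apart in lung, and the second row of ZNF487 stands at 2.30 in lung.

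Of the 15 genes that fell in lung derivatives, ZNF670, ZFP69B and ZNF124, all on the KRAB list, led. ZNF670 read 9.39, 9.29, 9.06 and 9.03 on the parental arrays, 9.09, 9.27 and 9.35 on the liver arrays and 8.65, 8.80 and 8.62 on the lung arrays. It fell by 0.51 on the log2 scale (SE 0.10, limma adjusted p = 0.00536), and its change against array 4 was -0.34. The lung arrays lay below all other arrays, while liver and parental arrays overlapped.

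ZFP69B read 8.32, 8.13, 8.08 and 7.88 on the parental arrays, 8.00, 8.04 and 8.14 on the liver arrays and 7.65, 7.70 and 7.69 on the lung arrays, a change of -0.42 (SE 0.09, limma adjusted p = 0.00784). ZNF124 read 9.47, 9.36, 9.23 and 9.25 on the parental arrays, 9.13, 9.37 and 9.39 on the liver arrays and 8.96, 9.00 and 8.75 on the lung arrays, also a change of -0.42 (SE 0.09, adjusted p = 0.00806). In both, the lung arrays were the lowest 3. Against array 4 the change of ZFP69B was -0.19 and that of ZNF124 was -0.34, and neither was called. With the median of its 7 rows in place of their mean, the change of ZFP69B was -0.00 (limma adjusted p = 0.989; 7.18e-04 to 0.989 over 18 alternatives).

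ZNF143, an activator that binds promoters and the anchors of chromatin loops, differed between lung arrays. Its parental arrays read 9.86, 9.71, 9.50 and 9.60, its liver arrays 9.54, 9.62 and 9.61 and its lung arrays 9.21, 9.18 and 9.60. Lung arrays 1 and 2 lay below all parental arrays and lung array 3 lay among them. The change was -0.34 (SE 0.11, limma adjusted p = 0.0400), and the call was lost in 13 of 18 alternative settings (adjusted p from 0.00817 to 0.352).

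The other falls were between 0.19 and 0.38 on the log2 scale. Among genes not on the KRAB list, ZBTB18, a neuronal repressor, changed by -0.24, ZNF687, a partner of ZMYND8, by -0.19, ZNF692 by -0.24, ZNF691 by -0.26 and ZNF511 by -0.27. On the KRAB list, ZNF496, which binds the methyltransferase NSD1, changed by -0.38, ZNF26 by -0.35, ZNF695 by -0.33, ZNF33A by -0.29, ZNF215, an imprinted gene, by -0.28 and ZNF268 by -0.21. Several of these calls were near the threshold: of 18 alternative settings, the call was lost in 15 for ZNF268, in 13 each for ZNF687 and ZNF691 and in 11 for ZBTB18. ZNF33A and its near-identical copy ZNF33B (-0.21, not called) may share probes, which leaves the value of each uncertain. ZNF384, a factor that forms fusions in leukaemia, read 10.30 to 10.35 on the lung arrays and 10.44 to 10.48 on the parental arrays; its change of -0.14 missed the threshold (adjusted p = 0.0650).

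Row by row the falls were spread thinly. The 15 genes have 133 rows, of which 114 lay below 0 in lung, 21 were called lower and 0 higher. Since the genes were called on the mean of these rows, the direction of the rows is no separate evidence. Of the 15 genes, 4 had no called row. Over all 468 ZNF rows, 42 were lower and 11 higher in lung (53 rows, 11.3%, against 13.1% of all rows; 7.99% of all rows were lower and 5.15% higher). In liver 6 ZNF rows were called (1.28% against 2.2%), all of them higher (1.15% of all rows), and 5 of them belong to ZNF503 and ZNF385A and 1 to ZNF644.

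Parental array 4 lay on the lung side of these genes. In 11 of the 15 it was below the range of parental arrays 1 to 3 and in 2 above, with a median difference of -0.17; of all 814 genes that fell in lung, it was below in 546, with a median of -0.14. In 13 of the 15, every lung array still lay below array 4. The change was smaller against array 4 in 13 of the 15 and larger in ZNF33A and ZNF215. Array set and lung derivation cannot be told apart except through this single array.

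**Figure D4:**
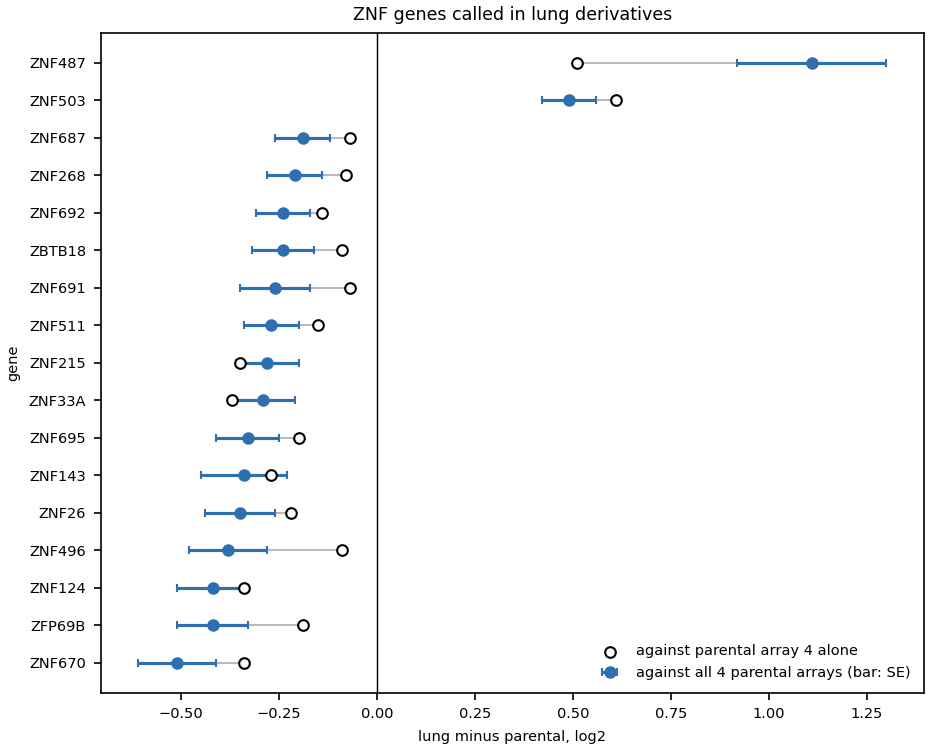
Change in lung derivatives (horizontal axis, log2) of the 17 called ZNF genes (vertical axis) against all 4 parental arrays (filled points, bars are SE) and against parental array 4 alone (open points). Most open points lie nearer 0 than the filled ones; ZNF503 moves from 0.49 to 0.61.

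The KRAB list and the other ZNF genes were set side by side as descriptions. In liver, 0 of 28 KRAB genes were called (median -0.04), and both genes that rose are on the other side (2 of 31, median -0.02). In lung, 9 KRAB genes fell (32.1%) and 1 rose (3.57%; median -0.20), and 6 of the other genes fell (19.4%) and 1 rose (3.23%; median -0.05), beside 17.3% and 12.9% of all genes. By array, the median KRAB gene lay at -0.20 to -0.17 from the parental mean on the lung arrays, -0.08 to 0 on the liver arrays and -0.10 to 0.06 on the parental arrays. The lung arrays lay below all others on this median but not on the mean level of the list, which was 8.01 to 8.08 on the lung arrays, 8.07 to 8.16 on the liver arrays and 8.07 to 8.24 on the parental arrays. The difference between the lists was not tested.

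Among the clusters, 1q44 held most falls. Of its 7 measured genes, ZNF695, ZNF670, ZNF124, ZNF496 and ZNF692 fell in lung (71.4%, beside 17.3% of all genes), and the median was -0.33. Against array 4 the median was -0.14, and none of the 7 was called. The other members, ZNF669 and ZNF672, did not follow. ZNF669 read 8.94, 8.80, 8.77 and 9.02 on the parental arrays and 8.93, 9.03 and 8.81 on the lung arrays, a change of 0.04, and ZNF672, which is not on the KRAB list, changed by -0.01 (95% interval -0.15 to 0.12). In both, lung and parental arrays overlapped. The 41 other measured genes between the 7 ZNF genes include 35 olfactory receptor genes. Of the 41, 13 rose in lung (31.7%, beside 12.9% of all genes) and 0 fell by limma's test. Their median was 0.27, and against array 4 it was 0.24 with 1 gene called higher. In the lowest brightness bin, 23.7% of all genes rose in lung and the median was 0.17.

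The remaining clusters moved less. In the pericentromeric cluster of chromosome 10, ZNF487 rose (8.33%, beside 12.9% of all genes) and ZNF33A fell (8.33%, beside 17.3%). Of its 12 genes, 10 did not pass the test, and the median was -0.10. At 11p15, ZNF143 and ZNF215 fell of 4 genes (50%), and at 12q24.33 ZNF26 and ZNF268 fell of 5 (40%), beside 17.3% of all genes. With 4 and 5 genes these shares are coarse. Both medians were -0.20. In liver none of the genes of these 4 clusters was called by limma (7.83% of all genes were).

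**Figure D5:**
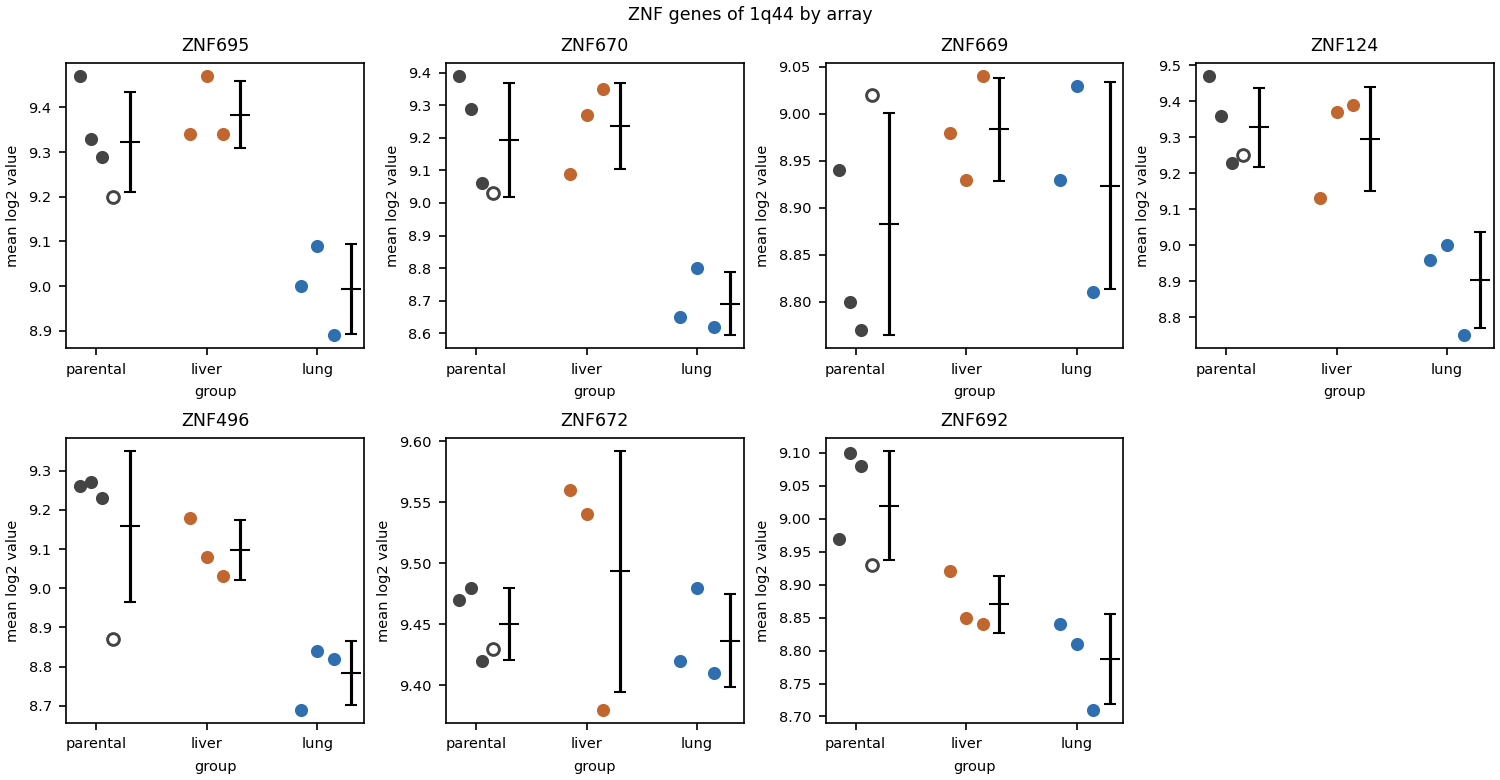
Mean log2 value (vertical axis) of the 7 ZNF genes of 1q44 in parental, liver and lung arrays; points are arrays, the open circle is parental array 4, and the bar is the mean ± SD. All lung arrays lie below all parental arrays in ZNF695, ZNF670, ZNF124, ZNF496 and ZNF692, and they overlap in ZNF669 and ZNF672.

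The third question was how lung and liver derivatives differed. ZNF487 was higher in lung by 1.37 (2.59-fold, SE 0.21, limma adjusted p = 0.00713), and ZNF670 (-0.55), ZNF26 (-0.47), ZNF408 (-0.40), ZNF695 (-0.39), ZNF124 (-0.39) and ZFP69B (-0.38) were lower. These 7 genes are 11.9% of the 59, against 19.9% of all genes (8.02% higher and 11.9% lower). Every lung array lay below every liver array in 22 ZNF genes (27.2% of all genes) and above in 4 (18.9%). Of the ZNF rows 42 were lower (8.97%, against 7.61% of all rows) and 12 higher (2.56% against 5.02%), 54 in all (11.5% against 12.6%). The median ZNF change was -0.10 beside -0.02 for all genes, and 45 of 59 lay below 0 (54.2% of all genes). In the model with the array set, limma called 0 of them, and 0.0849% of all genes. The count was 1 without liver array 2 (0.658% of all genes called) or liver array 3 (3.69%), and 2 without lung array 1 (3.99%), while without parental array 4 it was 15 (32.3% of all genes).

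ZNF408, mutated in a hereditary disease of retinal vessels, was not called against parental cells. It read 9.19, 9.13, 9.22 and 8.80 on the parental arrays, 9.30, 9.16 and 9.16 on the liver arrays and 8.72, 8.93 and 8.76 on the lung arrays. Lung and liver arrays did not overlap, and parental array 4 lay among the lung arrays; against array 4 the lung change from parental cells was 0.01. ZNF26 read 8.37, 8.50 and 8.52 on the liver arrays and 7.91, 8.15 and 7.91 on the lung arrays, also without overlap.

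A list of partners of KRAB silencing held 10 measured genes, and the scaffold TRIM28 was not among them. SUV39H2, a histone methyltransferase of heterochromatin, rose in liver by 0.25 (limma adjusted p = 0.0125). In lung, SETDB1 (-0.26), PPHLN1, a subunit of the HUSH silencing complex (-0.30), and MTA2 of the NuRD complex (-0.19) fell, and the median of the 10 was -0.11 (3 of 10 lower, beside 17.3% of all genes). SETDB1 read 9.85, 9.84, 9.75 and 9.70 on the parental arrays and 9.47, 9.54 and 9.57 on the lung arrays, with no overlap. Against array 4 the changes were -0.18, -0.13 and -0.06, none of them called by limma. In lung minus liver 6 of the 10 were lower (11.9% of all genes), and 0 in the model with the array set. Several of these partners are bright. In the third and highest brightness bins 27.8% of all genes fell in lung, and 16.6% and 24% were lower in lung minus liver. The part of brightness in the partner falls was not tested. The 31 other C2H2 genes with a family prefix (such as KLF, PRDM or ZBTB) were near the shares over all genes. In lung 2 rose and 6 fell (25.8% called, beside 30.1% of all genes). In liver 1 rose and 2 fell (9.68% called, beside 7.83% of all genes).

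Of the other lists, 5 of 5 leukocyte markers were higher in lung (12.9% of all genes) and 2 of 5 in liver (4.33%); against array 4, 2 of 5 were higher in lung. Their mean log2 value was 6.91 to 7.02 on the lung arrays, 6.66 to 6.75 on the liver arrays and 6.24 to 6.43 on the parental arrays; the pan-leukocyte gene PTPRC was dim, at 4.96 to 5.26 on all arrays. Of 7 colon epithelial markers, ELF3, LGR5 and TSPAN8 fell in both kinds of derivative (3.5% of all genes in liver, 17.3% in lung). The list mean was 9.08 to 9.15 on parental, 8.74 to 8.81 on liver and 8.80 to 8.84 on lung arrays. Among 4 lung epithelial markers 1 was higher in lung, among 4 stromal markers 1 rose and 1 fell in lung and 1 fell in liver, and 0 of 4 hepatocyte and 0 of 3 endothelial markers were called by limma in any comparison. The part of these markers in the ZNF results was not tested.

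In 40 of the 59 genes no comparison passed the test. Their changes ran from -0.21 to 0.41 in liver, with 23 below 0, and from -0.29 to 0.29 in lung, with 27 below 0. Lung minus liver ran from -0.51 to 0.46.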

How the data were processed

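The deposited values are log2 expression values, which the authors made with RMA and oligo (versions unnamed), per the submitters' processing notes. Per the labels, biotin-labelled RNA was put on the Affymetrix HG1.0ST chip. RMA sets arrays on a common distribution, so a change in total RNA per cell cannot be seen. For the annotation's genome build, the sources used here name none, and the table of 65535 rows may be incomplete. No log, floor or filter was applied; values ran from 2.55 to 13.99 and array medians from 8.52 to 8.60. The number of arrays limits the precision. Rows listing several symbols were left out, among them 21 that list a ZNF symbol. No 2 arrays held the same values.

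Gene means (4713 genes) and single rows (56949) were each fitted over all 10 arrays with limma (3.58.1, R 4.3.3), lmFit and eBayes, two-sided, with Benjamini-Hochberg adjustment over all features in each of 3 comparisons. Adjusted p-values in the text come from limma. The script was tested on simulated data. The 12 largest rises and falls among called ZNF genes of each comparison could be named, with cluster members, called genes of the other lists, and ZNF143, ZNF281 and ZNF384; genes called only under an alternative were named after their values were seen. The members and lists were chosen with earlier results of these data known. Alternatives were the array set, a replicate block, other scalings, summaries and filters, a trended prior, and leaving out each array.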

Additional observations from a re-analysis of the deposited data

Results flagged for a closer look

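Parental array 4 lay apart in ZNF496, at 8.87 beside 9.26, 9.27 and 9.23 on the other parental arrays, a gap past Dixon's 95% critical value for 4 samples. Of 19 named ZNF genes this was the 1 that passed, and of all 59 there were 3, all through the same array; chance gives about 1 in 20 groups.

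The liver and lung changes from the shared parental arrays differed, by limma's test of lung minus liver, in 7 ZNF genes. ZNF487 differed by 1.37, ZNF670 by -0.55, ZNF26 by -0.47, ZNF408 by -0.40, ZNF695 by -0.39, ZNF124 by -0.39 and ZFP69B by -0.38. With the array set as a term, 0 of these 7 were called.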

How the results depend on the processing

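Over 18 alternative settings, the named changes kept direction and call in 314 of 468 cases, lost the call in 150 and reversed in 4. These settings are not independent checks. For liver, adding the array set and leaving out parental array 4 gave the same changes. Leaving out an array of a group outside a comparison alters only the shared estimate of spread. Reversed were ZFP69B, lung minus liver, with the median of rows (0.04), and, in lung with the brightest row, ZNF33A (0.14), ZNF692 (0.02) and ZNF695 (0.02). In liver, 1 ZNF gene was called with the median of rows (5.71% of all genes) or the brightest row (2.84%). With 1 array left out, 1 to 3 were called in liver (4.65% to 8.95% of all genes). In lung, 3 were called with the array set (5.75% of all genes), 11 with median centring (29.3%) and 10 with quantile normalization (25.9%). With 1 array left out, 7 to 22 were called (17.7% to 41.4% of all genes). Lung minus liver gave 0 with the array set (0.0849% of all genes) and 1 to 15 with 1 array left out (0.658% to 32.3%). Without dim genes it gave 11 of the 52 ZNF genes kept, among 872 genes called in all. Median changes moved to 0.07 in liver (brightest row), -0.09 (median of rows) and -0.05 (brightest row) in lung, and -0.05 (array set) and -0.18 (brightest row) for lung minus liver. Called rows were 6 in lung and 1 for lung minus liver with the array set, and shares over all rows were not counted there. The causes were not tested. Same-numbered arrays did not deviate together (r from -0.20 to 0.13). The labels state no pairing, and these few arrays cannot settle whether there was one. A replicate block gave 1 called ZNF gene in liver (7.38% of all genes), 19 in lung (37.9%) and 13 for lung minus liver (27.4%). It gave 1 called ZNF row in liver and 83 in lung, and shares over all rows were not counted there. Parental array 4 is the only array with its number, so the block also takes it out of the comparisons.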
